A study of Mus musculus with 2 samples.

Results

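Cajal-Retzius (CR) cells are early-born glutamatergic neurons that secrete reelin and line the hippocampal fissure, where most of them die in the weeks after birth. The genes described here encode 2 families of proteins that meet across the synaptic cleft of such neurons, and 1 family that joins them there. Neurexins (*Nrxn2*, *Nrxn3*) sit in the presynaptic membrane. Neuroligins (*Nlgn1*, *Nlgn2*, *Nlgn3*) are their postsynaptic ligands, with neuroligin 1 found mainly at excitatory synapses, neuroligin 2 mainly at inhibitory synapses and neuroligin 3 at both. The leucine-rich repeat transmembrane proteins (*Lrrtm1*, *Lrrtm2*, *Lrrtm3*, *Lrrtm4*) are postsynaptic at excitatory synapses, where LRRTM1 and LRRTM2 bind neurexins and LRRTM4 also binds heparan sulfate proteoglycans. The 9 genes were taken by symbol from the 32285 genes of the feature table, and all 9 were found.

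Single-cell RNA-sequencing measured them in tdTomato-positive, DAPI-negative cells that had been sorted from the hippocampus of mice at postnatal day 14. The control library was *ΔNp73-Cre; Cic flox/+; tdT* and pooled 4 mice, 3 males and 1 female. The knockout library was *ΔNp73-Cre; Cic flox/flox; tdT* and pooled 4 littermates, 2 males and 2 females. *Cic* encodes Capicua, a transcriptional repressor acting downstream of receptor tyrosine kinases. The paper reports that Capicua was lost from most, but not all, hippocampal CR cells of the knockout line. Some cells of the knockout library may therefore still hold it. Controls carried 1 floxed *Cic* allele, and all mice carried the Cre driver, which acts in the *ΔNp73* lineage that includes CR cells, and the reporter. With 1 library per genotype no difference had a replicate check, and no test was made. Both libraries carry the same batch label.

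A CR cell here was a barcode with at least 2000 unique molecular identifiers (UMIs, each standing for 1 captured RNA molecule) and at least 5 UMIs of *Reln*, which encodes reelin. This gave 1003 control cells with a median of 6224 UMIs (range 2012 to 31769) and 390 knockout cells with a median of 6664 UMIs (range 2769 to 33453). No cell barcode was shared between the libraries. Each of 8 CR markers, including *Trp73*, *Lhx5* and *Calb2*, was seen in at least 25% of the cells of either library. The 6 GABAergic markers together had 19 control UMIs and 5 knockout UMIs, with *Sst* and *Vip* at 0 in both. Markers of other neurons were more common. The 5 pyramidal neuron markers had 437 and 209 UMIs, the most common being seen in 21.8% and 23.3% of cells, with *Neurod6* at 0. The 4 granule neuron markers had 140 and 77 UMIs, each in at most 4.09% and 6.67% of cells. Markers of glia, vessels and ependyma summed to 363 CPM in control and 365 CPM in knockout cells. The most common of them were *Slc1a2*, *Rgs5* and *Cspg4*, each seen in 30.3% to 37.9% of the cells of either library. The microglial *P2ry12* was seen in 11.0% of control and 11.8% of knockout cells, and the endothelial *Pecam1* in 16.4% and 15.4%. Other markers of the same cell types were rare: *Aqp4*, *Csf1r* and *Cldn5* had 6, 6 and 7 UMIs in the control and were at 0 in the knockout. Leaving out cells with 3 or more such UMIs, an alternative used below, removed 375 of 1003 control and 162 of 390 knockout cells. *Cic* itself was at 58.9 CPM (the gene's UMIs scaled to a fixed total) in control cells and 51.3 CPM in knockout cells, a ratio of 0.871 (0.714 to 1.06), and the 3′ tag does not show which exons a transcript holds. *Etv4*, a gene repressed by Capicua, was at 1.97 CPM and 70.9 CPM.

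CPM were taken from UMIs summed over cells, outside mitochondrial and ribosomal protein genes. These are 3′ tag counts without length scaling, so levels are compared within a gene, and isoforms such as alpha and beta neurexins cannot be told apart. Values in parentheses after a level or ratio are exact 95% Poisson intervals, which cover counting error only and not the spread between cells or animals.

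The promoter of *Lrrtm4* is shown because this gene had the largest ratio between the libraries among the 9. It is the 250 bases before the first annotated start, from RefSeq on GRCm38.p6, chr6:80018627-80018876, plus strand. Capitals would mark a match to the Capicua octamers TGAATGAA or TGAATGGA or to the ETS core CCGGAAGT on either strand, and no such letters were found.

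Lrrtm4 promoter: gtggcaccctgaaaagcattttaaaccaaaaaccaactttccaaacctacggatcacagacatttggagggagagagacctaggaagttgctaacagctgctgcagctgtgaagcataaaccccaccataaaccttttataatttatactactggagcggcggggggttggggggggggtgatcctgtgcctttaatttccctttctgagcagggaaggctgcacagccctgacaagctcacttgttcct

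It holds 3 CpG dinucleotides and has a GC content of 49.2%. In windows from 250 bases before to 50 bases after a start, 2.47% of 32851 mouse promoters held a Capicua octamer and 3.89% the ETS core. The table had 10 promoters for 6 of the 9 genes, and 0 of these 10 held either motif. This says only that the letters are not in these windows.

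By position in GENCODE M21 on GRCm38, *Nrxn3* spans 1612 kb of chromosome 12, *Nlgn1* 906 kb of chromosome 3 and *Lrrtm4* 791 kb of chromosome 6. *Nlgn2* spans only 14.7 kb of chromosome 11, and *Nlgn3* lies on chromosome X. Among the LRRTM genes 3 lie on the strand opposite an alpha-catenin gene that contains or overlaps them: *Lrrtm1* with *Ctnna2*, *Lrrtm2* with *Ctnna1* and *Lrrtm3* with *Ctnna3*. Alpha-catenins link cadherins to actin. The strand counted is not given in the sources used here, so the levels of these 3 genes are uncertain. *Lrrtm4* and *Nrxn2* also overlap genes of the opposite strand, which had few UMIs: *Gm4409* (45) for *Lrrtm4*, *Gm14964* (28) and *Slc22a12* (3) for *Nrxn2*.

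Every one of the 9 genes was detected in both libraries. A cell had a UMI of a median of 3 of the 9 genes in each library, and 32 control and 11 knockout cells had none. *Nrxn2* had a UMI in 78.0% of control cells and 86.7% of knockout cells, and *Lrrtm4* in 54.9% and 65.4%. *Lrrtm2* was the least often seen, in 6.78% and 7.95% of cells. When every cell was thinned to 2000 UMIs, the share with *Lrrtm4* was 34.5% of control cells (exact binomial 95% interval 31.6 to 37.5) and 48.5% of knockout cells (43.4 to 53.5). These intervals treat the cells of a library as independent draws and say nothing of the spread between animals. For *Nrxn2* they were 40.6% (37.5 to 43.7) and 49.5% (44.4 to 54.6). For *Nlgn1* they were 9.37% and 9.49%, and for *Lrrtm1* 7.68% and 8.72%.

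Droplets of 20 to 100 UMIs, which hold free RNA, set the background. *Lrrtm4* was at 21.6 CPM in control and 38.5 CPM in knockout droplets, well under its level in cells. *Nlgn1* was at 7.34 CPM and 10.5 CPM, and *Nrxn3* at 25.7 CPM and 22.7 CPM. *Nrxn2* was at 188 CPM and 169 CPM and *Nlgn2* at 71.6 CPM and 62.2 CPM in droplets, closer to their levels in cells. The control droplets had a median of 89 UMIs and the knockout droplets 44, beside the medians of 6224 and 6664 UMIs in cells. The markers used below to group cells were in droplets too. In the control library *Grik1* stood at 23.4 CPM (droplets) and 79.7 CPM (cells), but in the knockout library the droplets were at 58.9 CPM and the cells at 48.1 CPM. *Cck* stood at 130 CPM in droplets and 155 CPM in cells of the control, and at 85.6 CPM and 130 CPM in those of the knockout. At these levels a droplet of median size held 0.00208 and 0.00259 UMIs of *Grik1* in the control and knockout libraries, and 0.0116 and 0.00376 UMIs of *Cck*. These amounts depend on the window of 20 to 100 UMIs, which bounds the medians. Where free RNA was subtracted as an alternative, each cell lost the amount of such a droplet, so that alternative could change little.

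**Figure D1:**
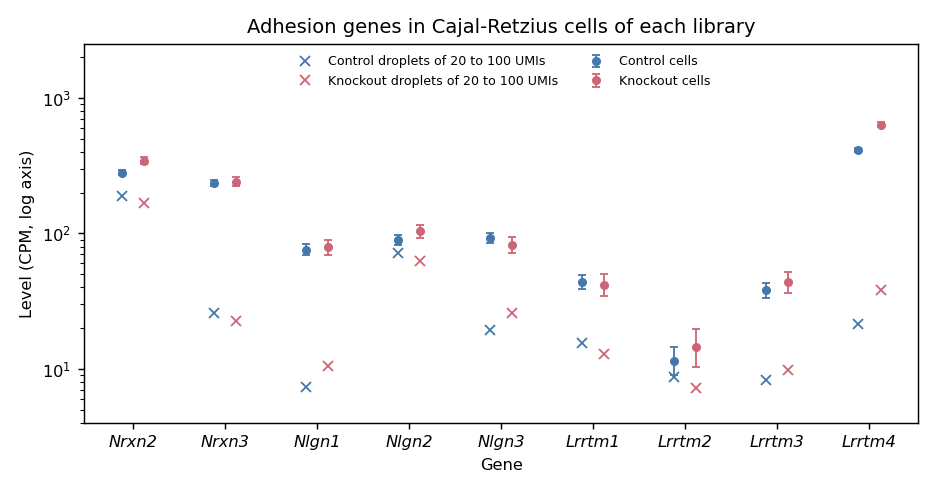
Level of each gene in CPM (log axis) in the CR cells of the control (blue) and knockout (red) library, with exact 95% Poisson intervals, and in droplets of 20 to 100 UMIs of the same library (crosses). *Lrrtm4* stands at 412 CPM in control and 635 CPM in knockout cells, the only one of the 9 genes past 1.5-fold.

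The first comparison asked how the genes stood in cells of the *Cic* knockout library against the control. Of the 9 genes, 1 lay past 1.5-fold, *Lrrtm4*, and it was higher in the knockout. Of all 9615 genes with at least 100 UMIs in both libraries together, 4.33% lay past 1.5-fold either way, 2.69% higher and 1.63% lower. The median ratio of the 9 genes was 1.15, beside 1.00 for all genes tested, and 7 of the 9 ratios were above 1. For 6 of the 9 genes the counting interval of the ratio held 1.

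Among the neurexins, *Nrxn2* was at 281 CPM (268 to 294) in the control and 345 CPM (323 to 368) in the knockout. Its ratio was 1.23 (1.13 to 1.33), higher in the knockout and under 1.5-fold. *Nrxn3* was at 236 CPM (224 to 248) and 242 CPM (224 to 261), a ratio of 1.03 (0.935 to 1.12). The intervals of *Nrxn2* did not overlap between the libraries, and those of *Nrxn3* did.

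The neuroligins differed little between the libraries. *Nlgn1* was at 76.0 CPM and 78.8 CPM, a ratio of 1.04 (0.880 to 1.22). *Nlgn2* was at 89.1 CPM and 103 CPM, a ratio of 1.16 (1.00 to 1.34). *Nlgn3* was at 92.2 CPM and 82.4 CPM, a ratio of 0.894 (0.764 to 1.04). No ratio of the neuroligins reached 1.5-fold in either direction, and each interval left out a 1.5-fold difference.

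Among the LRRTM genes, *Lrrtm4* was at 412 CPM (397 to 428) in the control and 635 CPM (605 to 665) in the knockout. Its ratio was 1.54 (1.45 to 1.64), close to the threshold, with an interval that reached below 1.5. *Lrrtm1* was at 43.9 CPM and 41.9 CPM, a ratio of 0.955 (0.763 to 1.19). *Lrrtm3* was at 38.0 CPM and 43.7 CPM, a ratio of 1.15 (0.918 to 1.43). *Lrrtm2* rested on 76 and 40 UMIs, at 11.5 CPM and 14.5 CPM, and its ratio of 1.26 (0.834 to 1.87) could not tell a 1.5-fold difference from none at this depth. Within the family, only the interval of *Lrrtm4* left out 1.

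The difference in *Lrrtm4* was present in every group of cells that was looked at. Cells were grouped by RNA of *Cck*, *Grik1* and *Chst8* or *Alkal2* into 5 groups that share no cell (3 groups with 1 marker only, 1 with more and 1 with none), and the ratio of knockout to control was above 1 in 5 of 5, from 1.29 to 1.82, with each interval above 1. These groups are parts of the same 2 libraries, so they do not repeat the comparison. The intervals cover counting error only and are narrower than the spread of *Lrrtm4* between cells. In male cells, called by Y-linked genes, it was 1.62 (1.5 to 1.76), at 391 CPM and 634 CPM. In female cells, called by *Xist*, it was 1.29 (1.17 to 1.43), at 500 CPM and 647 CPM, and so under 1.5-fold. Female control cells were higher than male control cells by 1.28 (1.17 to 1.40), whereas the knockout sexes were at a ratio of 1.02 (0.926 to 1.12). The control library held 702 male and 223 female cells and the knockout library 194 and 175. The control pool had 1 female mouse, so in female control cells sex cannot be told apart from that animal. The difference between the ratios in the sexes was not tested.

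Knockout cells can also be split by RNA of *Etv4* or *Etv5*, both repressed by Capicua, of which 41.5% of knockout and 8.67% of control cells had a UMI. *Lrrtm4* was at 756 CPM in the knockout cells with such a UMI and 537 CPM in those without, a ratio of 1.41 (1.28 to 1.55). *Nrxn3* was at 296 CPM and 198 CPM, a ratio of 1.49 (1.28 to 1.74). *Nrxn2* was at 322 CPM and 363 CPM, a ratio of 0.888 (0.779 to 1.01). The cells with a UMI were deeper, at a median of 7266 UMIs against 6210 UMIs, and held more UMIs of nuclear respiratory chain genes, 1.27% against 1.02%. The part of these differences in the result was not tested. Among control cells the same split went the other way for *Lrrtm4*, at 288 CPM with such a UMI and 426 CPM without. *Nrxn3* was also lower in the control cells with such a UMI, at 117 CPM against 248.9 CPM. The higher levels of both genes with such a UMI were thus seen in the knockout library only.

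*Nrxn2* was higher in the knockout in 5 of 5 groups too, from 1.16 to 1.27, with 2 intervals above 1. *Nrxn3* showed no single direction. It was higher in the knockout among cells with *Chst8* or *Alkal2* only, at 499 CPM against 316 CPM, and lower among cells with *Grik1* only, at 246 CPM against 419 CPM. *Nlgn1* followed the same split, at 129 CPM against 47.1 CPM and at 86.4 CPM against 168 CPM. For both genes the near-equal totals of the libraries thus held opposite differences in 2 groups of cells. These groups held only 51 and 43 knockout cells. *Grik1*, which defines 1 of them, was itself past 1.5-fold lower in the knockout, at a ratio of 0.604 (0.495 to 0.731). The part of this in the differences among *Grik1* cells was not tested. In the whole knockout library, 9 cells held 50% of the *Nrxn3* UMIs and 16 cells held 50% of the *Nlgn1* UMIs. The part of such bright cells in the opposite differences was not tested.

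**Figure D2:**
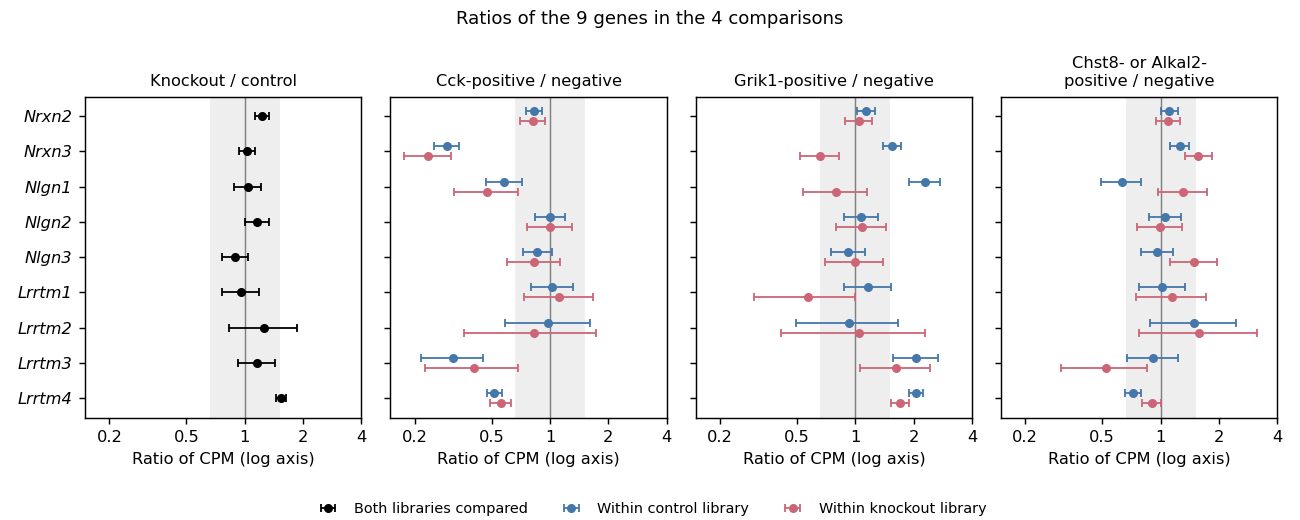
Ratio of CPM (log axis) of each gene, knockout over control in the first panel and marker-positive over marker-negative cells within each library in the others. Points carry exact 95% Poisson intervals and the grey band spans ratios within 1.5-fold. *Lrrtm4* is the only gene past the band in the first panel, and 4 genes lie below it with *Cck* in both libraries. *Nrxn3* and *Nlgn1* go opposite ways in the 2 libraries with *Grik1*. With at least 2 *Grik1* UMIs *Nrxn3* does not (1.65 and 1.19), but 1 knockout cell then held 42 of its 79 UMIs in positive cells.

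The second comparison set cells with at least 1 UMI of *Cck*, the gene of the neuropeptide cholecystokinin, against cells with none, within each library. There were 324 positive cells of 1003 in the control and 110 of 390 in the knockout. Of the 9 genes, 4 had a ratio stratified by library past 1.5-fold and the same direction in both libraries. All were lower in the *Cck*-positive cells: *Nrxn3*, *Nlgn1*, *Lrrtm3* and *Lrrtm4*. Of all genes, 4.98% did so either way, 2.32% higher and 2.66% lower. The median ratio of the 9 genes, stratified by library, was 0.823, beside 0.994 for all genes. The other 5 genes had ratios from 0.823 to 1.05.

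*Nrxn3* had the lowest ratio. It was at 91.8 CPM in *Cck*-positive and 312 CPM in *Cck*-negative control cells, a ratio of 0.294 (0.253 to 0.341). In the knockout it was at 72.9 CPM and 310 CPM, a ratio of 0.235 (0.177 to 0.309). The level in *Cck*-negative cells was thus nearly the same in both libraries. *Nrxn2* was lower by less, with ratios of 0.828 (0.749 to 0.914) and 0.814 (0.700 to 0.944).

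Of the neuroligins, *Nlgn1* was at 51.6 CPM against 89.0 CPM in the control, a ratio of 0.579 (0.467 to 0.714). In the knockout it was at 44.0 CPM against 92.9 CPM, a ratio of 0.474 (0.320 to 0.683). *Nlgn2* was level, with a stratified ratio of 1.00 (0.868 to 1.15), and *Nlgn3* had a stratified ratio of 0.852 (0.735 to 0.989). Of the family, only *Nlgn1* lay past 1.5-fold, and it did so in both libraries.

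*Lrrtm4* was at 256 CPM against 495 CPM in the control, a ratio of 0.516 (0.470 to 0.566), and at 405 CPM against 727 CPM in the knockout, a ratio of 0.557 (0.492 to 0.628). *Lrrtm3* was at 15.7 CPM against 49.8 CPM, a ratio of 0.316 (0.215 to 0.451), and at 21.4 CPM against 52.8 CPM, a ratio of 0.405 (0.227 to 0.680). *Ctnna3*, which overlaps *Lrrtm3* on the other strand, was lower with it, at a stratified ratio of 0.300 (0.240 to 0.374), and its part in the value of *Lrrtm3* was not tested. *Lrrtm1* and *Lrrtm2* had stratified ratios of 1.05 (0.852 to 1.29) and 0.929 (0.626 to 1.38). *Cck*-positive cells held a larger share of respiratory chain UMIs, 1.20% against 1.00% in the control, and their part in the result was not tested. Without the cells over 1.5% of such UMIs the same 4 genes lay past 1.5-fold.

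The third comparison set cells with a UMI of *Grik1*, which encodes the kainate receptor subunit GluK1, against cells with none, 194 cells of the control and 70 of the knockout being positive. Of the 9 genes, 2 had a stratified ratio past 1.5-fold and the same direction in both libraries, *Lrrtm3* and *Lrrtm4*, and both were higher. Of all genes, 5.46% did so either way, 1.77% higher and 3.69% lower. The median ratio of the 9 genes was 1.10, beside 0.988 for all genes, and 5 of 9 had the same direction in both libraries.

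*Lrrtm4* was at 695 CPM in *Grik1*-positive and 338 CPM in *Grik1*-negative control cells, a ratio of 2.06 (1.90 to 2.23). In the knockout it was at 949 CPM and 559 CPM, a ratio of 1.70 (1.53 to 1.88). *Lrrtm3* was at 63.9 CPM and 31.2 CPM in the control, a ratio of 2.05 (1.56 to 2.67), and at 63.4 CPM and 39.0 CPM in the knockout, a ratio of 1.62 (1.06 to 2.44). *Ctnna3* was higher as well, at a stratified ratio of 1.55 (1.31 to 1.82). The stratified ratio of *Lrrtm3* was 1.91, and it was 1.46 without cells with 3 or more non-neuronal marker UMIs and 1.20 in cells thinned to 2000 UMIs, both within 1.5-fold. *Lrrtm1* had a control ratio of 1.16 (0.872 to 1.53) and a knockout ratio of 0.571 (0.301 to 1.00), for which 14 UMIs fell in positive cells.

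*Nrxn3* and *Nlgn1* went opposite ways in the 2 libraries when 1 UMI of *Grik1* made a cell positive. *Nrxn3* was at 327 CPM against 211 CPM in the control, a ratio of 1.55 (1.38 to 1.73), and at 170 CPM against 259 CPM in the knockout, a ratio of 0.656 (0.520 to 0.819). *Nlgn1* was at 137 CPM against 59.9 CPM in the control, a ratio of 2.29 (1.90 to 2.75), and at 65.3 CPM against 82.1 CPM in the knockout, a ratio of 0.795 (0.537 to 1.15). Cells with at least 2 UMIs of *Grik1* (101 and 34 positive cells) were also set against those with 0. *Nrxn3* then no longer went opposite ways, at 1.65 (1.44 to 1.89) and 1.19 (0.929 to 1.51), and its stratified ratio of 1.52 passed 1.5-fold. However, 1 of the 34 knockout cells held 42 of their 79 *Nrxn3* UMIs, and the ratio without that cell was not taken. *Nlgn1* still went opposite ways, at 3.14 (2.56 to 3.83) and 0.713 (0.391 to 1.21). *Nrxn2*, *Nlgn2* and *Nlgn3* had stratified ratios of 1.10, 1.08 and 0.940, and for each of these the ratios in both libraries lay within 1.5-fold.

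The fourth comparison set cells with a UMI of *Chst8*, a sulfotransferase gene, or *Alkal2*, which encodes a ligand of the receptor ALK, against cells with neither. Of 232 and 91 positive cells, those of the knockout had a median of 7869 UMIs against 6361 UMIs in the negative cells. Of the 9 genes, 1 had a stratified ratio past 1.5-fold and the same direction in both libraries, *Lrrtm2*. Of all genes, 5.62% did so either way, 1.77% higher and 3.85% lower. *Lrrtm2* was at 15.3 CPM against 10.3 CPM in the control, a ratio of 1.49 (0.884 to 2.45), and at 19.8 CPM against 12.5 CPM in the knockout, a ratio of 1.59 (0.778 to 3.13). The stratified ratio was 1.52 (1.04 to 2.24), an approximate interval above 1, whereas each library's own exact interval held 1. Leaving out its brightest cell in each group gave 1.43, within 1.5-fold. *Ctnna1*, on the other strand, had a ratio of 0.787 in the control and 2.84 in the knockout.

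The other 8 genes had stratified ratios within 1.5-fold, and the median of the 9 was 1.06, beside 0.973 for all genes. *Nrxn3* was higher in both libraries, with ratios of 1.25 (1.12 to 1.40) among control cells and 1.56 (1.33 to 1.83) among knockout cells. *Lrrtm4* was lower in both, at ratios of 0.721 (0.654 to 0.794) and 0.899 (0.805 to 1.00). *Lrrtm3* had ratios of 0.913 (0.669 to 1.23) and 0.524 (0.307 to 0.852), and *Ctnna3* of 0.988 and 0.505. *Nlgn1* went opposite ways, at 0.628 (0.492 to 0.794) among control cells and 1.30 (0.970 to 1.74) among knockout cells. *Nlgn3* had ratios of 0.958 (0.790 to 1.16) and 1.49 (1.12 to 1.96).

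How the UMIs of a gene were spread over cells set the 9 genes apart from each other. *Nrxn3* was seen in 230 of 1003 control cells and 81 of 390 knockout cells, yet 92 and 34 cells with 5 or more of its UMIs held 83.4% and 87.4% of them. Its brightest control cell held 47 UMIs and its brightest knockout cell 56 UMIs. At 2000 UMIs per cell its variance was 5.57 and 5.86 times its mean, where independent counts at 1 level would give a value near 1. *Lrrtm4* had values of 2.73 and 2.64, with 5 or more UMIs in 20.7% of control and 32.3% of knockout cells. *Nlgn1* had 1.72 and 1.29, and *Lrrtm3* 1.17 and 1.63.

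*Nrxn2* had 1.13 and 1.15, and *Nlgn2* and *Nlgn3* lay between 0.939 and 1.11 in both libraries. The neurexins thus differed. For *Nrxn2*, 50% of the UMIs lay in the 210 brightest control cells and the 88 brightest knockout cells. For *Nrxn3*, 50% lay in 34 and 9 cells, and most of its UMIs lay in the about 9% of cells with 5 or more. For *Nrxn3*, *Lrrtm4*, *Nlgn1* and *Lrrtm3* the Poisson intervals are narrower than the spread between cells.

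**Figure D3:**
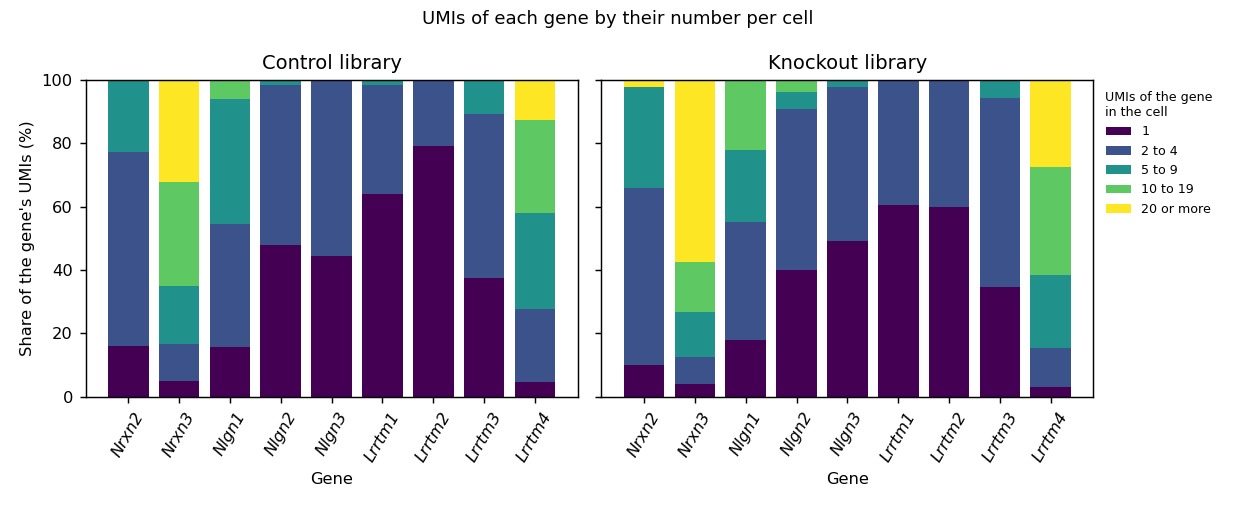
Share of the UMIs of each gene (percent) that lay in cells with 1, 2 to 4, 5 to 9, 10 to 19 or 20 or more UMIs of that gene, in the control (left) and knockout (right) library. Cells with 20 or more UMIs held 32.3% of *Nrxn3* UMIs in the control and 57.6% in the knockout.

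The cells with 5 or more *Nrxn3* UMIs were chosen by that value, so the following is a description. Of these, 13.0% of the control cells and 8.82% of the knockout cells had a *Cck* UMI, beside 34.2% and 30.1% of the remaining cells. *Lrrtm3* was at 108 CPM in them and 30.4 CPM in the remaining control cells, and at 103 CPM and 38.1 CPM in the knockout. *Lrrtm4* was at 555 CPM and 397 CPM in the control and at 1049 CPM and 595 CPM in the knockout, and *Nlgn1* at 106 CPM and 72.8 CPM and at 152 CPM and 71.7 CPM. *Nlgn2* was at 93.7 CPM and 88.6 CPM in the control and at 82.3 CPM and 105 CPM in the knockout.

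The depth of these cells was close to that of the rest in the control, at a median of 6171 UMIs against 6225 UMIs, and greater in the knockout, at 7672 UMIs against 6543 UMIs. The 8 CR markers summed to 3191 CPM and 3095 CPM among control cells and to 2814 CPM and 3379 CPM among knockout cells. GABAergic markers had 1 UMI in them in each library, and both sexes were present, with 66.3% male and 22.8% female cells in the control.

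The levels were then ordered over the 10 groups made by the 5 marker groups and the 2 libraries. *Lrrtm4* ran from 225 CPM (201 to 250) in control cells with *Cck* only to 1083 CPM (968 to 1207) in knockout cells with *Grik1* only, a 4.82-fold range. Between these, control cells with more than 1 marker, control cells with *Chst8* or *Alkal2* only and knockout cells with *Cck* only were at 325 CPM, 330 CPM and 351 CPM and did not differ beyond their intervals. Control cells with none were at 438 CPM. Knockout cells with *Chst8* or *Alkal2* only, more than 1 marker and none were at 567 CPM, 592 CPM and 679 CPM, again with overlapping neighbours, and control cells with *Grik1* only were at 842 CPM. Of the 9 pairs of neighbours in this order, 4 had overlapping intervals.

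*Nrxn3* had the widest range, 11.1-fold, from 44.9 CPM (28.2 to 68.0) in knockout cells and 62.6 CPM (50.3 to 76.9) in control cells with *Cck* only to 499 CPM (433 to 572) in knockout cells with *Chst8* or *Alkal2* only. Cells with more than 1 marker were at 110 CPM and 168 CPM in the knockout and the control, and cells with none at 283 CPM and 269 CPM. Of its 9 neighbouring pairs 7 overlapped. *Nlgn1* ran from 34.1 CPM (25.2 to 45.0) in control and 34.7 CPM (20.2 to 55.6) in knockout cells with *Cck* only to 168 CPM (142 to 198) in control cells with *Grik1* only, with all 9 neighbouring pairs overlapping.

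*Lrrtm3* ran from 12.5 CPM in control cells with *Cck* only to 89.7 CPM in knockout cells with *Grik1* only, and control cells with *Grik1* only were at 85.4 CPM. The cells with *Cck* only were thus the lowest for *Nrxn3*, *Nlgn1*, *Lrrtm3* and *Lrrtm4* in at least 1 library. *Nrxn2*, *Nlgn2*, *Nlgn3* and *Lrrtm1* had ranges of 1.65-, 1.37-, 1.85- and 1.66-fold, with all 9 neighbouring pairs overlapping for each. *Lrrtm2* ranged from 6.64 CPM to 21.9 CPM on at most 30 UMIs a group.

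**Figure D4:**
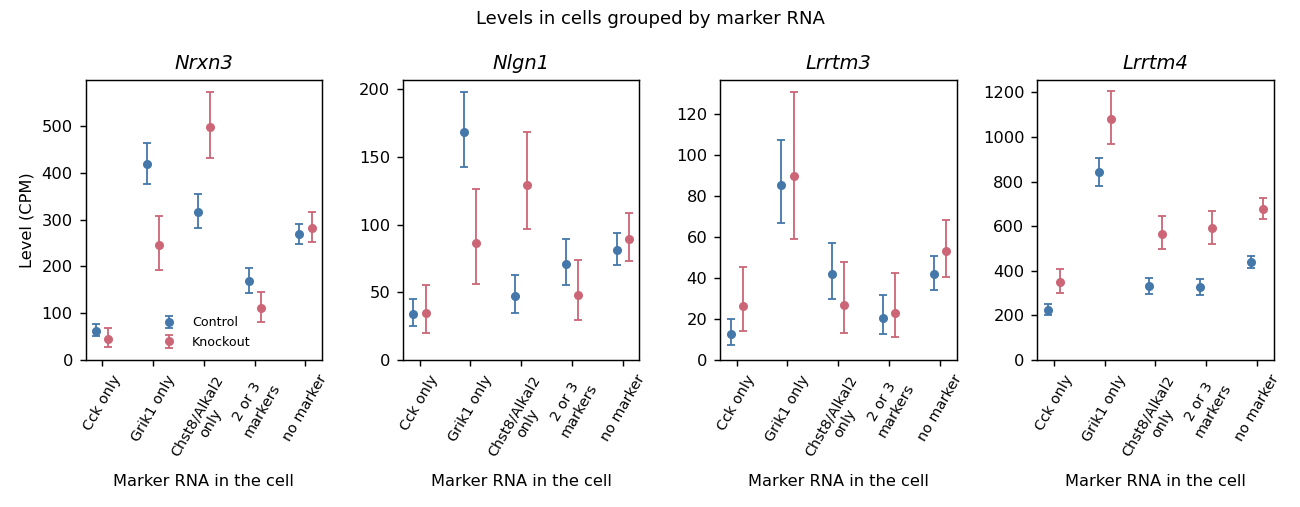
Level in CPM of *Nrxn3*, *Nlgn1*, *Lrrtm3* and *Lrrtm4* in cells with RNA of 1 marker only, of more than 1, or of none, in the control (blue) and knockout (red) library, with exact 95% Poisson intervals. *Lrrtm4* is higher in the knockout in each group and highest with *Grik1* only, at 842 CPM and 1083 CPM.

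Partners of these proteins were counted from lists of 92 genes, beside the 4.33% of all genes past 1.5-fold. Of 24 neurexin ligands and partners, 16 could be compared between the genotypes and 2 (12.5%) were past 1.5-fold, both higher in the knockout. *C1ql1*, a secreted C1q-like synaptic organizer, was at 6.36 CPM and 63.6 CPM, a ratio of 10.0 (7.11 to 14.4). *Nxph1*, a secreted neurexophilin that binds alpha neurexins, was at 8.03 CPM and 29.3 CPM, a ratio of 3.65 (2.55 to 5.26). The most abundant of the list, *Clstn2*, a calsyntenin, had a ratio of 0.911 (0.891 to 0.933), and *Clstn1* was at 1234 CPM and 1483 CPM. The median ratio of the 16 genes was 1.02.

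Of 17 neuroligin partners and scaffolds compared, 1 was higher, *Dlgap1*, a postsynaptic density scaffold, by 1.62 (1.18 to 2.22). *Gphn*, which encodes the inhibitory scaffold gephyrin, was at 2243 CPM and 2156 CPM, and the median ratio of the 17 genes was 1.01. Of 27 other synaptic organizers, 5 (18.5%) were past 1.5-fold. Of these 4 were higher (*Tenm1*, *Lrfn4*, *Il1rapl2* and *Lrfn3*, by 1.51 to 1.74) and 1 was lower, *Ntrk3*, a neurotrophin receptor that also binds a presynaptic phosphatase, at a ratio of 0.484 (0.342 to 0.672). The 27 had a median ratio of 1.04, and their most abundant gene, *Lrrc4c*, was at 2273 CPM and 2429 CPM. Of 8 splicing regulators of neurexins, 0 were past 1.5-fold, with a median ratio of 0.869. *Ctnna1* was higher by 1.90 (1.41 to 2.54), and *Ctnna2* and *Ctnna3* lay within 1.5-fold.

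Between *Cck*-positive and *Cck*-negative cells, where 4.98% of all genes were past 1.5-fold, 1 of 16 neurexin partners was lower, *Nxph1*, at a ratio of 0.296 (0.175 to 0.502). None of 17 scaffolds passed 1.5-fold. Of 27 other organizers, *Ntrk3* and *Tenm1* were higher, by 7.13 (5.32 to 9.55) and 1.78 (1.45 to 2.17), and *Cadm2*, *Il1rapl1* and *Ptprd* were lower, at ratios of 0.546 to 0.631. Of 8 splicing regulators 1 was lower, *Rbfox1*, at a ratio of 0.221 (0.178 to 0.275). RBFOX1 is an RNA-binding protein that sets exon use in neurons. The medians of these 4 lists were 0.937, 0.924, 0.932 and 0.904, beside 0.994 for all genes.

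Between *Grik1*-positive and *Grik1*-negative cells, where 5.46% of all genes were past 1.5-fold, *Rbfox1* was higher by 4.05 (3.56 to 4.61) and *Khdrbs3*, another splicing regulator, lower, at a ratio of 0.594 (0.465 to 0.759). Of 16 neurexin partners 2 were higher, *Nxph3* and *C1ql1*, and of 27 other organizers *Tenm2* and *Flrt2* were higher, by 1.86 and 1.84, and *Ntrk3* was lower, at a ratio of 0.234 (0.139 to 0.395). *Rbfox1* and *Ntrk3* therefore went opposite ways in the *Cck* and *Grik1* comparisons, which share cells. With *Chst8* or *Alkal2*, where the share was 5.62%, 3 of 16 neurexin partners (*C1ql1*, *Nxph1* and *Nxph3*, at ratios of 0.536 to 0.646), *Tenm1* and *Rbfox1* were lower, and *Dlgap2* was higher by 1.72 (1.19 to 2.48).

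Over the same 10 groups, the genes whose levels followed those of the 3 most abundant of the 9 genes most closely were found among 1823 genes with at least 1000 UMIs, by Pearson's r of log2(CPM + 1). For *Lrrtm4* these were *Calr* (r = 0.974), *Dab1* (r = 0.918) and *Ppib* (r = 0.905). For *Nrxn3* they were *Agbl4* (r = 0.966), *Brinp3* (r = 0.959) and *Astn1* (r = 0.958). For *Nrxn2* they were *Slc35f1* (r = 0.895), *Ache* (r = 0.849) and *Slc22a17* (r = 0.847). The 10 groups come from 2 libraries, so these values describe them and carry no test.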

How the data were processed

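The authors deposited raw counts of UMIs for every gene and barcode of the 2 libraries (10x 3′ v3.1), before cells were called. The matrix header names Cell Ranger 4, the methods another version on mm10, and the submitters' processing notes Cell Ranger 8.0.1 and mm39. Whether introns were counted is not given in the sources used here. The libraries held 16336796 and 6777071 UMIs. The CR cells held 6601724 and 2765943 UMIs outside mt-, Rpl, Rps and Mrp genes, the denominator of CPM.

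A gene was called past 1.5-fold if it had at least 100 UMIs in both libraries together. In marker comparisons, the ratio was stratified by library (Mantel-Haenszel) and both libraries had to share its direction. Intervals came from scipy 1.17.1, and the steps were tested on simulated data. The simulated counts held counting error only, so that check says nothing of the spread between cells or animals. Cells were thinned at random to 2000 UMIs. No doublet caller was run. The 9 genes and all lists were chosen with earlier results of these data known. Besides the 9 genes, those named were up to 5 per partner list and comparison with an interval leaving out 1, the 2 most abundant per list and the 3 of highest r. The groups of cells by *Nrxn3* UMIs were chosen after the values were seen. Alternatives varied the cells, the scaling, the gene minimum, sex, free RNA and depth.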

Additional observations from a re-analysis of the deposited data

Results flagged for a closer look

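With 1 UMI of a marker making a cell positive, the 2 libraries gave opposite directions with intervals that did not overlap in 3 cases. The difference between the libraries was not tested, since each is 1 sample. *Nrxn3* in *Grik1*-positive against negative cells had a knockout ratio of 0.423 times the control ratio (0.656 against 1.55). Of the positive cells, 27 of 194 in the control and 5 of 70 in the knockout had 5 or more *Nrxn3* UMIs. Without the brightest cell of each group the ratios were 1.5 and 0.391.

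*Nlgn1* in the same comparison had a knockout ratio of 0.347 times the control ratio (0.795 against 2.29), with 5 or more *Nlgn1* UMIs in 15 of 194 and 1 of 70 positive cells. Without the brightest cells the ratios were 2.21 and 0.626. *Nlgn1* in cells with *Chst8* or *Alkal2* had a knockout ratio of 2.08 times the control ratio (1.30 against 0.628), or 1.25 and 0.584 without the brightest cells. In all 3 cases the opposite directions remained without those cells. With at least 2 UMIs of the marker against 0 they remained for *Nlgn1*, at 3.14 and 0.713 with *Grik1* and 0.742 and 1.5 with *Chst8* or *Alkal2* (control and knockout). They did not remain for *Nrxn3*, at 1.65 and 1.19. There 1 knockout cell held 42 of the 79 *Nrxn3* UMIs in positive cells, and the ratio without it was not taken. *Lrrtm4* with *Chst8* or *Alkal2*, not among the 3 cases, went opposite ways with at least 2 UMIs, at 0.644 and 1.13.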

How the results depend on the processing

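Of 58 counts of genes past 1.5-fold under an alternative, 48 stayed within 1.5 times the value reported. Between the genotypes the count was 1, *Lrrtm4*, under each alternative run except in female cells alone, where it was 0. The ratio of *Lrrtm4* ran from 1.29 in female cells to 1.83 for knockout cells with an *Etv4* or *Etv5* UMI against all control cells. With *Cck* the count was 4 under each alternative except 3 in thinned cells, where *Lrrtm3* was under 100 UMIs at a ratio of 0.342. With *Grik1* the count of 2 became 1 without cells with 3 or more non-neuronal marker UMIs and 1 in cells thinned to 2000 UMIs (*Lrrtm3* was at 1.46 and 1.20), 4 in the control library alone and 4 in the knockout library alone, where no shared direction is asked. It was 3 with at least 2 UMIs of *Grik1*, where *Nrxn3* was higher in both libraries, with 42 of its 79 UMIs in positive knockout cells held by 1 cell. With *Chst8* or *Alkal2* the count of 1 became 0 without cells with 3 or more non-neuronal marker UMIs, 0 without cells high in respiratory genes, 0 at 300 UMIs per gene, 2 in the knockout library alone and 0 without the brightest cell of each gene, and it was 1 with another gene in thinned cells (*Nrxn3*), in the control library alone (*Nlgn1*) and in *Cck*-negative cells alone (*Lrrtm3*). Leaving out the brightest cell and taking *Cck*-negative cells alone were chosen after seeing the data. Of 522 values of single genes under an alternative, 481 kept their direction, and 0 of the genes past 1.5-fold reversed. Changing the gene minimum alters no ratio, so the values under those alternatives kept their direction by design. Genes past 1.5-fold in marker comparisons share a direction in both libraries by definition, so taking 1 library alone could not reverse them. No paired analysis was possible because there was 1 library per genotype, and for the same reason no replicate could be left out. Depth limits *Lrrtm2* most, with 116 UMIs in all.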
